A study of Mus musculus with 30 samples.

Results

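The transcription factor p53, encoded by Trp53, and 9 genes that it is known to switch on were followed through the cell cycle of growing mouse muscle precursor cells. The 10 genes (Trp53, Mdm2, Ccng1, Sesn1, Sesn2, Zmat3, Bax, Bbc3, Gadd45a and Phlda3) were chosen by symbol from a table of 46078 genes, and each matched 1 gene. The cells were C2C12, an established line of mouse myoblasts, in the growing state and in serum-rich medium. They were stained with a Hoechst DNA dye and separated by a cell sorter into G1, S and G2/M fractions, the 3 groups compared here. All groups share the line, the medium and the dye, and the labels name no damaging agent, drug or genetic change. RNA was sequenced in 6 samples, 2 per phase, and the 24 chromatin samples of the series are not analysed here.

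In unstressed cells p53 is made and destroyed all the time, because MDM2, the product of one of its own target genes, marks it for degradation. Stress such as DNA breaks frees p53 from MDM2, and p53 then binds a response element, a tandem pair of short half-sites, near its target genes. The targets slow the cell cycle, aid repair, trim growth signalling or start cell death, and Mdm2 closes the loop. The control of p53 acts mainly on the protein, so the level of Trp53 RNA is not a reading of p53 activity.

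To show what such an element looks like beside the genes measured here, the p53 response element consensus was searched, on both strands, in RefSeq promoter windows of build GRCm38.p6, which run from 250 bases before to 50 bases after an annotated start. The search took the consensus of 20 bases without a spacer, kept the C and G of each core and allowed up to 3 mismatches elsewhere. Of the 10 genes, 9 had a window (12 windows in all), and 4 genes held a match. Among all 32851 windows 453 held one, or 1.38%. Each line gives the strand of the gene, 5′ to 3′, with the match in capitals and 20 bases on either side.
Ccng1: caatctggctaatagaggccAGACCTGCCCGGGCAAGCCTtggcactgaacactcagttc
Trp53: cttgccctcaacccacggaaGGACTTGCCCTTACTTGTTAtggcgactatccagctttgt
Bbc3: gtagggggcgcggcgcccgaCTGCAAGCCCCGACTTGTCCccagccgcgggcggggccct
Sesn1: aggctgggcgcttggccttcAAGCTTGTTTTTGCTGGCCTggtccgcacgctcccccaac
The Ccng1 stretch is chr11:40755442-40755501 on the minus strand, and its match begins 195 bases before the start and has 1 mismatch. Only 22 of all windows, or 0.0670%, held a match that close. The Trp53 stretch is chr11:69580264-69580323, with a match 75 bases before the start, and the Bbc3 stretch is chr7:16309466-16309525, with a match 97 bases before it. The Sesn1 stretch is chr10:41887246-41887305, before an alternative start inside the gene, and its match begins 173 bases upstream. These last 3 are on the plus strand and have 3 mismatches each, and none of the 4 stretches overlaps an exon of its gene in the deposited table. A narrower motif, the core CATG repeated with 6 bases between, was in 0 of the 12 windows and in 0.712% of all windows. A match describes letters and not binding, and elements can lie elsewhere, as in Mdm2, whose known elements are in its first intron.

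The samples were checked before the genes were compared. The 6 samples ranged from 16109055 to 18103769 assigned fragments. The labels call the 2 samples of a phase replicates without tying them to separate cultures, and their file labels could stand for lanes. Their difference was close to that of counting alone: chi-square per degree of freedom came to 1.00, 1.03 and 1.15 for G1, S and G2/M (1.04 when the gene model Gm17082 was dropped). The excess in S and G2/M was small, and the 2 samples of a phase were summed to 1 library and are called columns below, so differences between phases come without a replicate check and without p-values. Intervals are 95% intervals that cover counting error only. Between columns of one phase no member differed by more than 1.16-fold. Column values are given below as a description. Columns that do not overlap between phases restate a difference in counts and are no replicate check. The titles of the S samples have a lot mark not found on the others, and this lot and the S phase cannot be told apart.

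As a check on the sort, 8 genes of mitosis summed to 710, 2255 and 3248 CPM (counts scaled to a common library size) in G1, S and G2/M, and Ccnb1, the cyclin of mitotic entry, stood at 74.4, 242.5 and 389.8 CPM in that order. In contrast, 8 genes of the G1/S transition summed to 1531, 592 and 571.1 CPM and were thus highest in the G1 library. Against G1, all 8 had lower levels in S, and 7 passed 2-fold. Top2a made up 376, 1317 and 1499 CPM of the mitosis sums in G1, S and G2/M. The mitosis gene Cdc20 was lower in S than in G1, at 89.9 against 104.3 CPM. No gene of either list was highest in S, so the S fraction was not checked by a peak of its own. Of 9 myoblast markers, Myf5, Des, Cdh15, Chrna1 and Vgll2 reached 10 CPM in every phase, and Myod1 stood at 5.73 to 6.65 CPM. Pax7 had 0, 0 and 119 fragments in G1, S and G2/M, the last 3.28 CPM. Msc stood at 1.65 to 3.91 CPM, and Myog had 80, 0 and 42 fragments in G1, S and G2/M. Of 12 markers of other cells, only Tubb3 and Pparg reached 10 CPM, and Ptprc, Epcam, Krt18, Krt8, Adipoq and Sox10 had no fragment in any phase. Cd68 had 169, 47 and 0 fragments in G1, S and G2/M, and Pecam1, Cdh5 and Alb had at most 39 in a phase. The 12 listed markers summed to 302, 148 and 281 CPM over G1, S and G2/M, lowest in S. Most of each sum was Tubb3, at 253.4, 131.4 and 253.6 CPM in that order. The part of these markers in the results was not tested. Of keratins not listed, Krt14 and Krt19, picked after their values were seen, had means of 281.1 and 32.8 CPM over the phases. A level here is a share of the RNA in a library, so fewer cells with an RNA and less of it per cell cannot be told apart, and the total RNA of a cell was not measured.

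The 10 genes did not move as a block: Mdm2, Zmat3, Phlda3 and Sesn2 were lowest in G2/M, Gadd45a and Ccng1 were highest in S, Bax was lowest in S, Trp53 was highest in G1, and Sesn1 was highest in G2/M. Differences within counting error were those of Bbc3 in all comparisons, Trp53 between S and G2/M, Sesn2 between G1 and S, and Bax and Gadd45a between G1 and G2/M. A gene was called when its levels lay 2-fold or further apart and the higher one reached 10 CPM. By that rule 1 of 10 members was higher in S against G1, where 17.2% of 8773 genes were called, 8.59% higher and 8.62% lower. For G2/M against S, 2 of 10 were lower, where 13.7% of 8751 genes were called, 7.1% higher and 6.64% lower. For G2/M against G1, 1 of 10 was lower, where 19.8% of 8848 genes were called, 9.98% higher and 9.86% lower. With 10 genes, 1 gene is 10 percentage points, so these counts are read as a description and not as a result about the members. All 10 members reached the minimum in each comparison, but Sesn2 did so through G1 and S alone, where it was high, and Bbc3 through S and G2/M alone. The comparisons share libraries, so they are not independent.

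**Figure D1:**
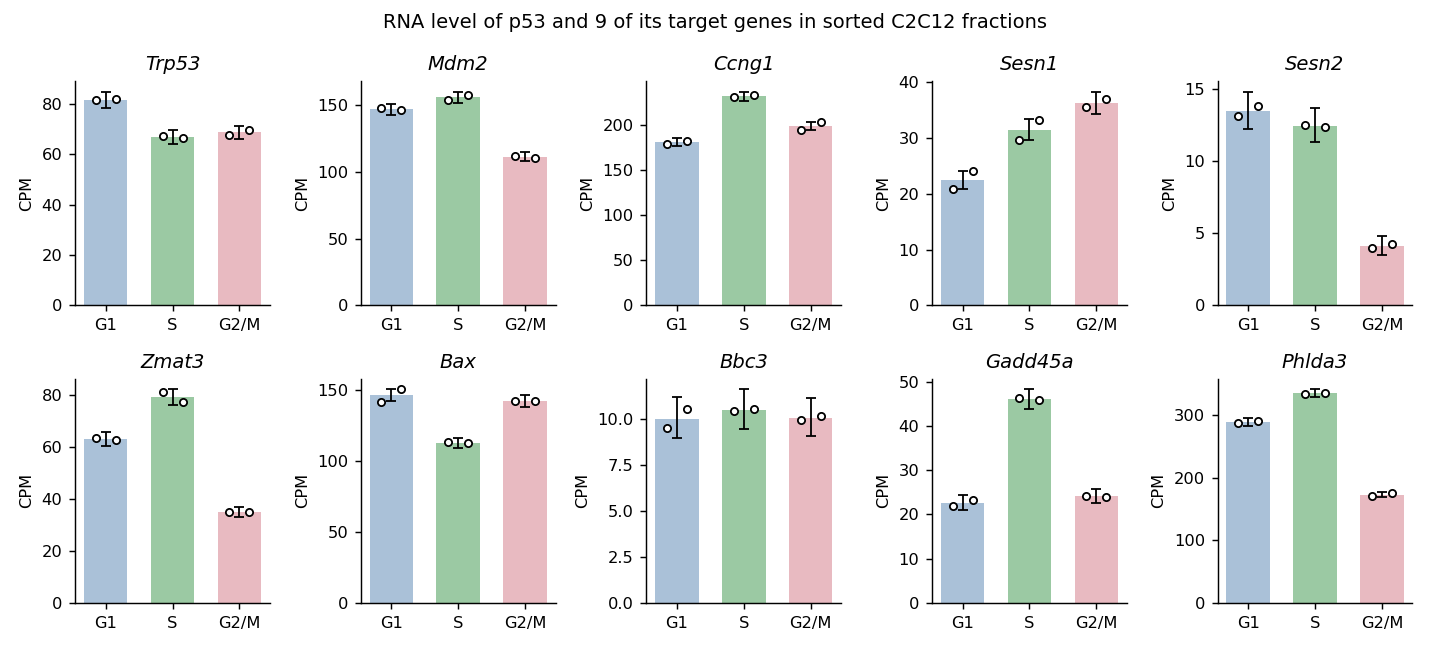
RNA level (CPM, vertical axis from 0) of the 10 genes in the G1, S and G2/M libraries; bars are the summed library, black lines its exact 95% Poisson interval, and open circles the 2 columns. Zmat3, Phlda3 and Sesn2 are lowest in G2/M, Gadd45a stands out in S at 46.0 CPM, and the columns of a phase lie close together.

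Per base of exon the genes spanned a wide range. Over the phases, Phlda3 had the highest mean level at 170.2 FPKM (CPM per kilobase of exon), followed by Bax at 154.1, Ccng1 at 57.9 and Mdm2 at 27.2 FPKM. Trp53 and Gadd45a lay close to each other at 17.9 and 17.5 FPKM. Below them came Sesn1 at 9.04, Zmat3 at 5.15, Bbc3 at 5.06 and Sesn2 at 2.87 FPKM. The apoptosis genes Bax and Bbc3 thus stood near opposite ends of this order.

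Trp53 itself, the gene of the factor, was nearly level, with the highest value in G1. It lies on chromosome 11 from 69580359 to 69591873 (GRCm38, as all positions here) as ENSMUSG00000059552. Its columns stood at 81.4 and 81.9 CPM in G1, 67.2 and 66.2 CPM in S, and 67.5 and 69.7 CPM in G2/M. Both G1 columns lay above all others, and the S and G2/M columns did not overlap but were close. The log2 ratio was -0.29 between S and G1 (interval -0.37 to -0.21) and 0.04 between G2/M and S (-0.04 to 0.12). As a scale, genes with a mean of 50 to 200 CPM had a robust SD of the log2 ratio of 0.48 between S and G1, so the Trp53 difference, though outside counting error, was smaller than the usual spread of such genes.

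Mdm2, the ubiquitin ligase that removes p53, was lower in G2/M than in the other phases. It lies on chromosome 10 from 117688888 to 117710758 as ENSMUSG00000020184. The columns were at 147.6 and 146.3 CPM in G1, 154.1 and 157.7 CPM in S, and 111.9 and 110.7 CPM in G2/M. Both G2/M columns lay below all others. The gene was 1.40-fold lower in G2/M than in S, with a log2 ratio of -0.49 (interval -0.55 to -0.43). Of 3178 genes with a mean of 50 to 200 CPM, 413 were as low or lower in G2/M against S. Between S and G1 the ratio was 0.09 (0.03 to 0.14).

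Its relative Mdm4, which also holds p53 in check, was highest in G2/M, where Mdm2 was lowest. Both were higher in S than in G1, Mdm2 by a log2 ratio of only 0.09. The level of Mdm4 was 83.0, 155.8 and 228.4 CPM in G1, S and G2/M. From G1 to G2/M this is a 2.75-fold difference, a log2 ratio of 1.46, where Mdm2 had -0.40. The difference between the ratios of the pair was not tested.

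Cyclin G1 (Ccng1), a cyclin without a classical kinase partner and one of the strongest p53 targets in many tissues, was highest in S. It lies on chromosome 11 from 40748552 to 40755311 as ENSMUSG00000020326, and its upstream match is printed above. The columns stood at 178.7 and 181.9 CPM in G1, 230.2 and 232.4 CPM in S, and 194.3 and 202.6 CPM in G2/M. No columns of different phases overlapped. The log2 ratio was 0.36 between S and G1 (interval 0.31 to 0.41) and -0.22 between G2/M and S (-0.27 to -0.18). Of 1061 genes with a mean of 200 CPM or more, 15.8% were as high or higher in S against G1. Ccng1, with a mean of 203.4 CPM, is at the lower edge of that class. Its paralog Ccng2 stood at 22.2, 25.0 and 15.8 CPM in G1, S and G2/M.

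Gadd45a, a small protein that restrains the mitotic kinase and helps repair, had the clearest peak in S. The gene lies on chromosome 6 from 67035096 to 67037457 as ENSMUSG00000036390. Its columns were at 21.9 and 23.3 CPM in G1, 46.2 and 45.8 CPM in S, and 24.3 and 23.9 CPM in G2/M. The S columns were far above the rest, while G1 and G2/M were within counting error of each other, with a log2 ratio of 0.09 (interval -0.05 to 0.24). Between S and G1 the level was 2.04-fold higher, a log2 ratio of 1.03 (0.90 to 1.15), and between G2/M and S it was 1.91-fold lower, at -0.93 (-1.05 to -0.81). Without the first G1 column the S to G1 ratio was 0.99, just under 2-fold. Among genes of 20 to 50 CPM, 8.62% were as high or higher in S against G1 and 8.04% as low or lower in G2/M against S.

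Of the exon bases of Gadd45a, 337, or 19.1%, overlap the antisense gene E230016M11Rik, which had 120, 2 and 0 fragments in G1, S and G2/M. The command in the file header names no strand option, so fragments there cannot be assigned to a strand. The part of this overlap in the Gadd45a difference was not tested. No other member shared exon bases with another gene.

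The other GADD45 genes had other profiles by value, and these differences between genes were not tested. Gadd45g, which has the same fold and partners, stood at 13.05, 47.9 and 58.2 CPM in G1, S and G2/M, so that S lay above G1, as for Gadd45a, here 3.67-fold, and G2/M was higher still. Gadd45b stood at 45.4, 40.1 and 35.1 CPM in that order, with a log2 ratio of -0.18 between S and G1. The 3 paralogs thus differed in which phase had the highest level: S for Gadd45a, G2/M for Gadd45g and G1 for Gadd45b. Of 12 paralogs of the members in all, 6, 7 and 7 were measured in the comparisons S against G1, G2/M against S and G2/M against G1, and 1, 1 and 3 were at least 2-fold higher, with medians of 0.12, -0.05 and 0.03. These were Gadd45g, Mdm4 and, named after its values were seen, Zmat1, and none was 2-fold lower. Over all genes 8.59%, 7.1% and 9.98% were at least 2-fold higher in these comparisons, and 8.62%, 6.64% and 9.86% lower. With so few paralogs measured, their counts are a description.

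**Figure D2:**
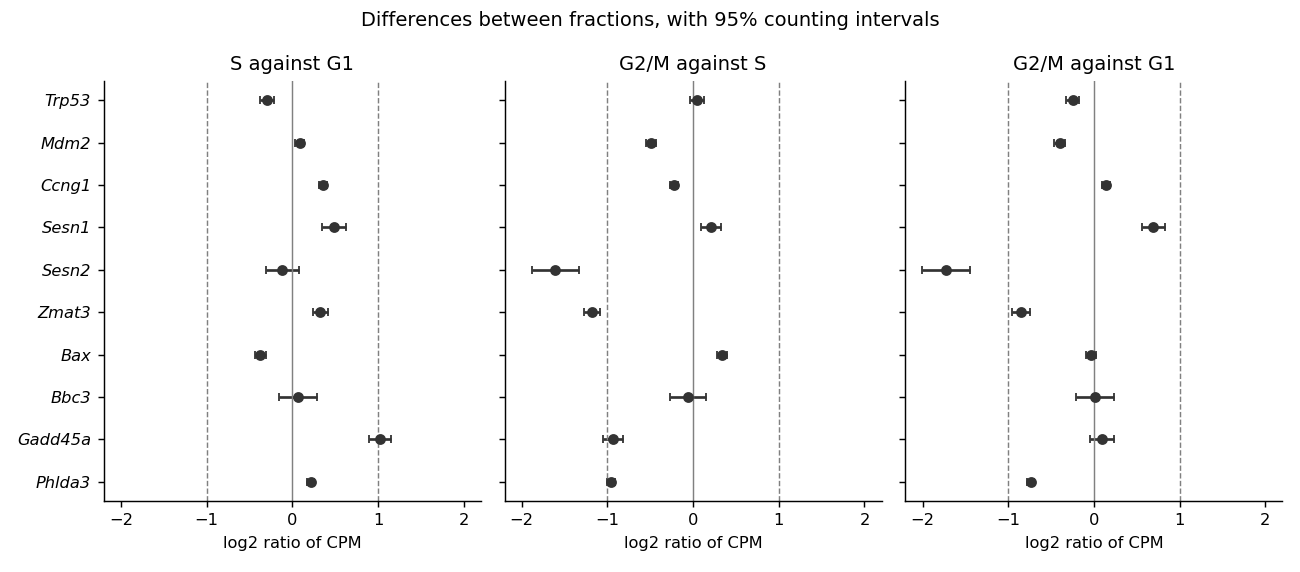
Log2 ratio of CPM (horizontal axis) of each gene in S against G1, G2/M against S and G2/M against G1, with exact 95% counting intervals; dashed lines mark 2-fold. Beyond 2-fold lie Gadd45a in the first panel, Sesn2 and Zmat3 in the second, and Sesn2 in the third.

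The sestrins, leucine and stress sensors that restrain the growth kinase mTORC1, differed in direction. Sesn1 (chromosome 10, 41810574 to 41908424, ENSMUSG00000038332) had columns at 20.8 and 24.2 CPM in G1, 29.7 and 33.2 CPM in S, and 35.7 and 37.0 CPM in G2/M. Its columns did not overlap between phases, and G2/M was 1.62-fold above G1, a log2 ratio of 0.69 (interval 0.56 to 0.83). Of 2587 genes of 20 to 50 CPM, 18.6% were as high or higher in that comparison.

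Sesn2 (chromosome 4, 132492032 to 132510501, ENSMUSG00000028893) was lowest in G2/M. Its columns were at 13.1 and 13.8 CPM in G1, 12.5 and 12.4 CPM in S, and 3.94 and 4.21 CPM in G2/M. The library counts were 431, 445 and 148 fragments. G1 and S were within counting error of each other, and both G2/M columns were far below. The gene was 3.05-fold lower in G2/M than in S, with a log2 ratio of -1.61 (interval -1.89 to -1.34), and 3.30-fold lower than in G1, at -1.72 (-2.00 to -1.45).

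Such ratios were not rare at that level. Among genes of 5 to 20 CPM the robust SD between G2/M and S was 1.15, 38.4% differed at least 2-fold, and 7.52% were as low or lower than Sesn2. The third sestrin gene, Sesn3, stayed under 10 CPM, with 8, 117 and 152 fragments in G1, S and G2/M.

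Among genes of the same level class (a range of mean CPM), Zmat3 and Phlda3 stood furthest out, both in G2/M against S. Zmat3 encodes a zinc finger protein that binds RNA and acts in splicing and decay, and it lies on chromosome 3 from 32334792 to 32366014 as ENSMUSG00000027663. Its columns were at 63.2 and 62.7 CPM in G1, 80.9 and 77.1 CPM in S, and 35.0 and 34.7 CPM in G2/M. The G2/M columns were below all others by a wide margin. It was 2.27-fold lower in G2/M than in S, a log2 ratio of -1.18 (interval -1.28 to -1.08), and 1.81-fold lower than in G1. Only 27 of the 3178 genes of 50 to 200 CPM, or 0.850%, were as low or lower in G2/M against S. The mean of Zmat3, 58.9 CPM, is near the lower edge of that class, and ratios spread wider at lower levels. In this comparison the robust SD was 0.42 in that class and 0.65 at 20 to 50 CPM, where 7.0% were at least 2-fold lower.

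Phlda3, a small protein that blocks the kinase AKT at the membrane, had the highest level per exon length of the 10 genes and lies on chromosome 1 from 135766119 to 135769136 as ENSMUSG00000041801. Its columns stood at 287.1 and 289.9 CPM in G1, 333.9 and 335.8 CPM in S, and 170.0 and 175.3 CPM in G2/M. The G2/M columns lay far below the others, which also did not overlap each other. The ratio between G2/M and S was 1.94-fold lower, or -0.96 on the log2 scale, and 7 of 1061 genes of 200 CPM or more, or 0.660%, were as low or lower. It misses the 2-fold rule by a little, and 5 of these 1061 genes, or 0.471%, passed it. Against G1, G2/M was 1.67-fold lower, a log2 ratio of -0.74 (interval -0.79 to -0.69), and 3.86% of these genes were as low or lower. The related gene Phlda1, not a member, stood at 106.7, 111.4 and 89.2 CPM in G1, S and G2/M.

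**Figure D3:**
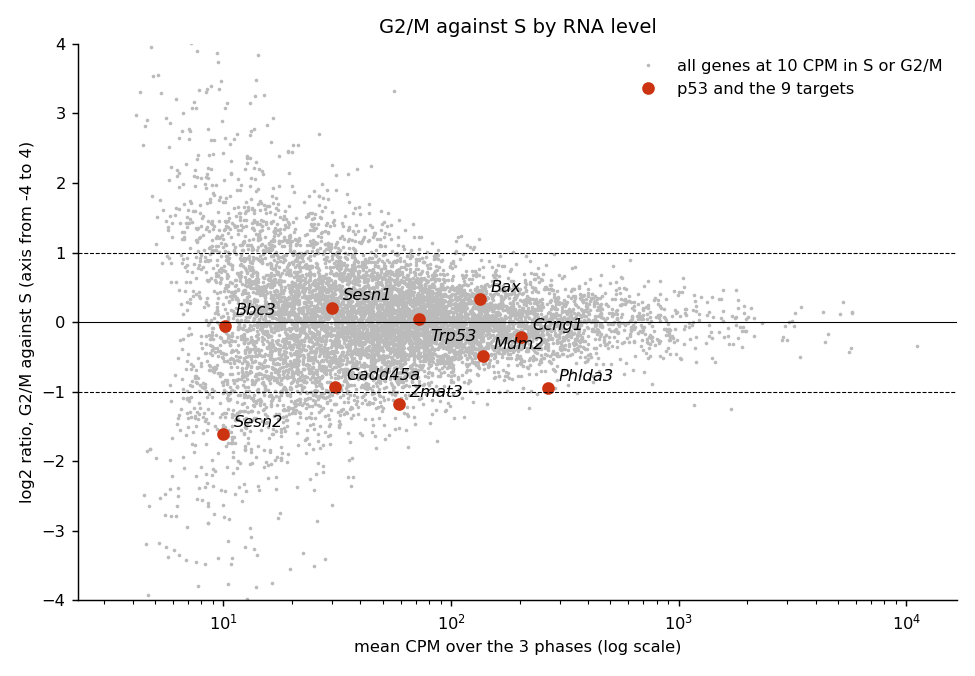
Each grey point is 1 measured gene, by mean CPM over the phases (log axis) and log2 ratio of G2/M against S (points beyond 4 not drawn); red points are p53 and the 9 targets, dashed lines mark 2-fold. The cloud narrows with level, so Phlda3 at -0.96 and Zmat3 at -1.18 lie at its lower edge while Sesn2 at -1.61 lies within it.

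Bax and Bbc3 act in the mitochondrial pathway of cell death. Bax, the pore-forming protein of the outer mitochondrial membrane, lies on chromosome 7 from 45461695 to 45466898 as ENSMUSG00000003873. Its columns stood at 142.0 and 150.6 CPM in G1, 113.4 and 112.5 CPM in S, and 142.6 and 142.3 CPM in G2/M. The S columns were below the rest, and the G1 and G2/M columns overlapped. The log2 ratio was -0.37 between S and G1 (interval -0.43 to -0.31) and 0.33 between G2/M and S (0.27 to 0.39), each within the robust SD of genes at its level, which was 0.48 and 0.42.

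Bbc3, which encodes PUMA, a BH3-only activator of BAX, was low throughout. It lies on chromosome 7 from 16309616 to 16318205 as ENSMUSG00000002083. Its columns were at 9.48 and 10.5 CPM in G1, 10.4 and 10.5 CPM in S, and 9.94 and 10.2 CPM in G2/M. The columns of G1 overlapped those of both other phases. All 3 log2 ratios had intervals that include 0, -0.15 to 0.29 for S against G1, -0.27 to 0.15 for G2/M against S and -0.21 to 0.23 for G2/M against G1. A difference within these bounds was not detectable at 320 to 375 fragments.

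Across the members, 7 of 10 had a higher level in S against G1, and the median log2 ratio was 0.15, where 49.5% of all measured genes were higher and the median was -0.01. Between G2/M and S, 7 of 10 were lower with a median of -0.35, where 49.7% of all measured genes were lower and the median was 0.00. Between G2/M and G1, 6 of 10 were lower with a median of -0.14, where 50.5% of all measured genes were lower and the median was -0.01. These 6 include Bax, whose interval of -0.10 to 0.02 includes 0. Both counts of 7 include Bbc3, whose intervals of -0.15 to 0.29 for S against G1 and -0.27 to 0.15 for G2/M against S include 0. The members were chosen with earlier results of these data known, so these counts describe the genes and carry no test. By order of level, Mdm2, Zmat3 and Phlda3 shared the order S, G1, G2/M from high to low, which 13.8% of 9070 genes at 10 CPM or more had, and Ccng1 had the order S, G2/M, G1, as did 16.5%. Bbc3 and Gadd45a had that order by value too, but their G1 and G2/M levels were within counting error of each other.

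Genes with nearly the same profile over the 3 phases were easy to find, as 3 values set a weak measure. Among 4179 named genes at a mean level of 50 CPM or above, the smallest distances from Trp53 in centred log2 CPM belonged to Fkbp2 (0.00523), Rpl6 (0.0125) and Ppp4r3a (0.0150), and 186 genes lay within 0.1. For Mdm2 they belonged to Uba3 (0.00459), Ube4a (0.0101) and Alyref (0.0156), and 101 genes lay within 0.1.

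Other p53 targets lay in both directions. Of 34 further targets, 25 reached the minimum between S and G1, 2 of them at least 2-fold higher and 7 at least 2-fold lower, around a median of -0.11. Over all genes 8.59% were higher and 8.62% lower by this rule. Cdkn1a, the kinase inhibitor p21 and the best known arrest gene of the pathway, stood at 46.8, 20.6 and 22.5 CPM in G1, S and G2/M, so that it was highest in G1, where Ccng1 was lowest. The nuclease gene Aen stood at 77.5, 32.0 and 41.4 CPM, and the thiamine transporter Slc19a2 at 40.8, 16.7 and 36.8 CPM. The other lower ones, named after their values were seen, were Xpc, Pidd1, Eda2r and Dram1. Higher in S than in G1 were Fbxw7, the substrate receptor that clears cyclin E, at 49.7 against 20.4 CPM, and Gtse1, a microtubule protein that restrains p53 in G2, at 50.9 against 24.1 CPM.

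Between G2/M and S, 23 of the 34 reached the minimum, with 2 at least 2-fold higher, 2 at least 2-fold lower and a median of 0.04, where 7.1% of all genes were higher and 6.64% lower. The 4 were Slc19a2 and, named after their values were seen, Eda2r with a log2 ratio of 1.17, Trp53inp1 with -1.45 and Plk3 with -1.14. Trp53inp1, a partner of p53 in stress, resembled Zmat3 in being highest in S and lowest in G2/M, at 14.7, 22.9 and 8.37 CPM in G1, S and G2/M. Between G2/M and G1, 1 of 25 was at least 2-fold higher and 4 lower, around a median of -0.15, where 9.98% of all genes were higher and 9.86% lower. The higher gene was Gtse1, at 100.1 against 24.1 CPM, and Cdkn1a was 2.08-fold lower. The other lower ones were Xpc, Pidd1 and Dram1, also named after their values were seen. Ddit4l, Rprm and Sfn had no fragment in any phase.

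Genes that act on p53 differed in both directions too. Of 27 regulators, 25 were measured between S and G1, with 1 at least 2-fold higher and 2 lower. The lower ones were the checkpoint kinase Chek1, at 30.9 against 87.7 CPM, and the ubiquitin ligase Rchy1, at 18.6 against 46.9 CPM. The higher one, named after its values were seen, was the acetyltransferase gene Kat5, at 20.5 against 9.96 CPM. None of 24 reached 2-fold for G2/M against S, and G2/M against G1 had 2 higher, Mdm4 and Ppp1r13l, and 3 lower, Chek1, Rchy1 and Chek2. Ppp1r13l and Chek2 were named after their values were seen. Medians were -0.14, 0.14 and -0.01 in the order S against G1, G2/M against S and G2/M against G1. Over all genes 17.2%, 13.7% and 19.8% were called in that order, so the counts are a description and not a result about the regulators. Ppm1d, a phosphatase that is itself a p53 target, stood at 11.3, 7.70 and 5.92 CPM in G1, S and G2/M. Cdkn2a, whose ARF product inhibits MDM2, had 0 fragments in all 3 libraries, and 3 fragments, the limit taken for a count of 0, would be 0.0937, 0.0837 and 0.0826 CPM in G1, S and G2/M. The p53 relatives Trp63 and Trp73 also had 0 fragments.

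**Figure D4:**
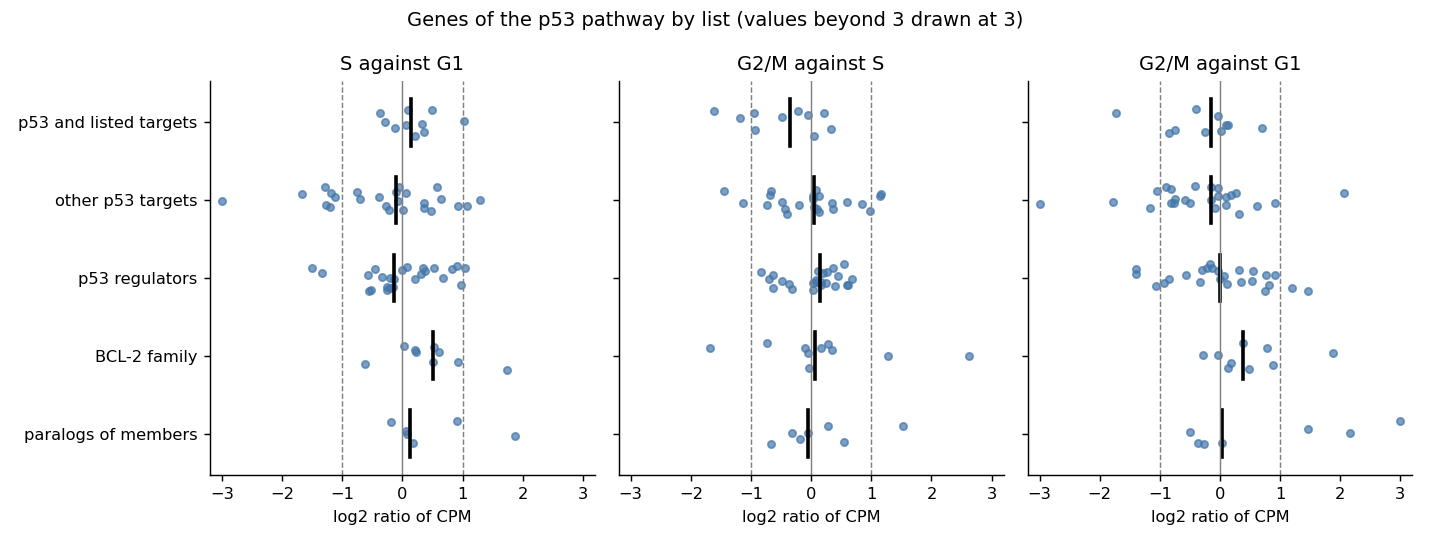
Log2 ratio of CPM (horizontal axis, values beyond 3 drawn at 3) of each measured gene of 5 lists in the 3 comparisons; 1 point is 1 gene, the black bar is the list's median and dashed lines mark 2-fold. The bar of p53 and its listed targets lies at -0.35 in G2/M against S, and that of the other p53 targets at 0.04.

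Around Bax and Bbc3, the BCL-2 family was measured for 9 of 15 genes between S and G1 and 10 between G2/M and S. Mcl1, a short-lived survival protein, was level at 364.9, 373.8 and 358.5 CPM in G1, S and G2/M. Bid, the BH3-only protein cut by caspase-8, stood at 22.1, 33.7 and 81.5 CPM and in G2/M lay 2.42-fold above S. Pmaip1, or NOXA, another BH3-only p53 target, stood at 27.3, 51.6 and 31.2 CPM, highest in S as Gadd45a was. The family's medians were 0.50, 0.06 and 0.38 in the 3 comparisons. At least 2-fold apart were 1 of 9, 3 of 10 and 1 of 9 family genes, where 17.2%, 13.7% and 19.8% of all genes were. The remaining family genes beyond 2-fold, named after their values were seen, were Bcl2, at 6.06, 20.3 and 6.36 CPM, and Bcl2l11, at 6.71, 2.01 and 12.4 CPM, both at levels where such ratios are common.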

How the data were processed

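RNA of C2C12 cells sorted into G1, S and G2/M was measured in 6 samples, 2 per phase. The authors deposited raw fragment counts for each gene, summed over its exons by featureCounts on Ensembl GRCm38, per the file headers. The submitters' processing notes also name HISAT2 2.1.0, SAMtools 1.6 and featureCounts 1.5.0. The header names no option for strand or overlapping genes. Symbols were matched for 45143 of 46078 genes.

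Because the columns of a phase differed by about counting noise, they were summed to 1 library per phase (32395232 fragments in G1, 35822319 in S, 35907974 in G2/M) and scaled to CPM with TMM factors (0.989, 1.00 and 1.01; edgeR 4.0.16, R 4.3.3). Counts under 3 were raised to 3 before a log2 ratio was taken. Intervals are exact binomial (ratios) or Poisson (levels) at 95%. These intervals take each fragment as independent and cover counting error only, so PCR copies of a molecule would make them too narrow. FPKM is CPM per kilobase of the exon length in the deposited table. Robust SD is the scaled median absolute deviation. The ratio and interval calculations were tested on simulated counts, with pass limits applied only where counting error was the sole variation. The other steps were not tested in this way.

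Members, lists and level classes were chosen with earlier results of these data known. Named genes are the 10 members, 8 fixed relatives, and list members beyond 2-fold at a mean of at least 20 CPM, up to 5 per list and comparison. Pmaip1 and Phlda1 were picked after their values were seen, as were genes so marked in the text. Alternatives were other scalings, filters, thresholds and floors, leaving out each column, and edgeR and DESeq2 1.42.0 with columns as replicates.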

Additional observations from a re-analysis of the deposited data

How the results depend on the processing

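The counts of members beyond 2-fold were 1, 2 and 1 for S against G1, G2/M against S and G2/M against G1, the order used here. DESeq2 size factors, library size alone, no filter on level and a floor of 1 fragment left these counts as they were. With a mean of at least 50 CPM required, they were 0, 1 and 0, since Gadd45a and Sesn2 are below it (background 5.54%, 2.38% and 6.51%). At 1.5-fold they were 1, 4 and 4 (background 36.9%, 31.6% and 39.8%). Leaving out each of the 6 columns in turn gave 0 to 1, 2 to 2 and 1 to 1; the 0 came without the first G1 column.

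With the columns treated as replicates, although the labels do not say whether they are separate cultures, edgeR's quasi-likelihood test at an FDR of 0.05 called 8, 8 and 7 members, against 84.7%, 83.6% and 84.7% of 12489 genes. With the replicate number as a block it also called 8, 8 and 7, and DESeq2 called 7, 7 and 7, against 77.8%, 75.2% and 78.2% of genes. The labels do not say what the numbers share, so the block pairs columns by number only.

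Over the 2 other scalings and the 6 columns left out, all 240 recomputed log2 ratios of members stayed inside the counting interval of the reported value, and the largest shift was 0.13. The sign turned for 2 ratios close to 0, both between G2/M and G1: Bax, from -0.04 to 0.02, and Bbc3, from 0.01 to -0.05 and -0.01. For 24 further genes, added after the values were seen, all 576 stayed inside. The scalings differed little, the columns of a phase were near alike, and some columns left out belonged to neither phase compared. These checks thus had little room to fail. Counts for the other lists depended on the level filter. Other p53 targets beyond 2-fold between S and G1 numbered 9 (background 17.2%), but 2 when the mean had to reach 50 CPM (background 5.54%). With the columns summed to 1 library per phase, variation between cultures was not assessed.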
